A study of Homo sapiens with 28 samples.

Results

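The 10 genes described here belong to glutathione metabolism and to the NRF2 antioxidant response, and were followed through RNA-seq libraries of residual HCT116 tumors and of cell lines grown out of such tumors. They were chosen by symbol from the gene count table, GCLC, GCLM and GSS for glutathione synthesis, GSR, TXN, TXNRD1 and SRXN1 for the recycling of glutathione, thioredoxin and peroxiredoxins, NQO1 and HMOX1 as detoxifying enzymes, and GPX2, a glutathione peroxidase of the gut epithelium. All 10 had a row among the 58278 genes counted, and 9 of them held enough reads to be tested, GPX2 being the exception.

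Glutathione is made from glutamate, cysteine and glycine, glutamate-cysteine ligase (GCLC with its modifier GCLM) carrying out the rate-limiting step and glutathione synthetase (GSS) the last one. The transcription factor NRF2 (NFE2L2) is held low by KEAP1, which presents it to a CUL3 ubiquitin ligase for degradation. Under oxidative or electrophilic stress NRF2 escapes and binds antioxidant response elements of genes such as NQO1, GCLM, TXNRD1, SRXN1 and HMOX1, the last of which is also repressed by BACH1. Glutaminase, which supplies glutamate from glutamine, stands upstream of glutathione synthesis.

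HCT116 is an established human colorectal carcinoma line, used here with a luciferase and GFP reporter and grown under the skin of male NOD SCID mice, which lack T and B lymphocytes but keep their own stroma and vessels. The mice were dosed daily by mouth with vehicle (Control), the CDK4/6 inhibitor Palbociclib, the glutaminase inhibitor Telaglenastat (spelled Telaglenestat in the labels), or both drugs (Combination), and 3, 5, 4 and 4 residual tumors of these groups were sequenced. The 12 cultures were monolayer lines explanted from tumors of the 4 treatments, 3 for each, and were kept without any drug, so that a culture is named for what its donor tumor had received. All 28 libraries derive from 1 parental line, and the labels do not tie a culture to a tumor. Reads counted on genes ranged from 6273834 to 13815675 per library. The fold changes within tumors were scaled over the tumors alone, on which Telaglenastat and Combination tumors sit lower against Control by a log2 value of 0.11 and 0.10 than in the CPM printed here. The p-values below measure the spread between these tumors and lines. Levels are given as CPM, the count of a gene relative to the total of its library, scaled over all 28 libraries, and differences are log2 fold changes with their standard errors (SE) from edgeR's quasi-likelihood test, with p-values adjusted by the Benjamini-Hochberg method over all genes tested and a threshold of 0.05.

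The epithelial markers EPCAM, CDH1, KRT8, KRT18 and KRT19 were present at a mean of at least 1 CPM in all 8 groups. Their summed level was 2619 to 3157 CPM in Control tumors and 1553 to 1712 CPM in Telaglenastat tumors, with 2879 to 3990 in Palbociclib tumors, 2253 to 2548 in Combination tumors and 1319 to 2495 CPM in the cultures. Markers of stroma, vessels and blood cells (16 genes) summed to 244 to 295 CPM in Control, 211 to 293 in Palbociclib, 75.2 to 93.8 in Telaglenastat and 149 to 237 in Combination tumors, and to 8.83 to 33.2 CPM in the cultures. DCN, LUM and HBB had no count in Control tumors. In such bulk samples fewer cells of a type and less RNA per cell cannot be told apart. In these xenografts, reads mapped to human stroma, vessel and blood cell genes may also come from mouse cells. A further property set the tumor groups apart, the dependence of counts on GC content: per SD of GC content (8.08 percentage points), log2 CPM shifted by 0.26 ± 0.0066 (SD, n = 3) in Control, 0.29 ± 0.11 (n = 5) in Palbociclib, -0.34 ± 0.036 (n = 4) in Telaglenastat and -0.21 ± 0.057 (n = 4) in Combination tumors, relative to the mean of all tumors. Differences are therefore given also after correcting each library for its dependence on GC content of the transcripts and exon length of the gene. The marker sums above are without this correction.

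Antioxidant response elements share the core TGACNNNGC, which was searched on both strands of the RefSeq promoter windows (GRCh38.p14, 250 bases before to 50 after a start site). Windows of 7 of the 10 genes were searched, and 3 of these 7 held the core. It was held by 13.3% of all 35116 windows and by 19 of 69 other genes of the pathway with a window. The remaining genes of the 10 were left out of this search. The share of 3 in 7 is therefore not one of all 10, nor strictly comparable with the other shares. Matches of GCLM, TXNRD1 and GPX2, the 3 genes that held the core, are printed with 10 flanking bases, 5′ to 3′ in the orientation of the core, which is in capitals.
GCLM: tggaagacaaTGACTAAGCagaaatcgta
TXNRD1, first start site: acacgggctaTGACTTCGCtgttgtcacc
TXNRD1, second start site: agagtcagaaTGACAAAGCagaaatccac
GPX2: atccccaggaTGACTTAGCaaaaacaggt
Positions are those of the printed stretch with its flanks, and distances are those of the core. The GCLM stretch lies at chr1:93909446-93909474, 25 bases before the start, on the strand opposite to the gene. The TXNRD1 stretches lie at chr12:104215670-104215698, 90 bases before its first start, on the strand of the gene, and at chr12:104286920-104286948, 93 bases before its second start, on the opposite strand. The GPX2 stretch lies at chr14:64942849-64942877, 113 bases before the start, also on the strand opposite to the gene. A further match of TXNRD1 at its first start is not printed. The windows of GCLC, TXN, NQO1 and SRXN1 did not hold these letters, but sequence farther from a start site was not searched. A match is a description of the sequence and not a measured binding site.

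On GRCh38 (GENCODE release 29) the genes lie at chr6:53497341-53616970 (GCLC), chr1:93885205-93909456 (GCLM), chr20:34928433-34956027 (GSS), chr8:30678061-30727999 (GSR), chr9:110243811-110256640 (TXN), chr12:104215779-104350305 (TXNRD1), chr20:646615-653370 (SRXN1), chr16:69706996-69726951 (NQO1), chr22:35380361-35394214 (HMOX1) and chr14:64939152-64942905 (GPX2). All 10 are protein-coding, and counts were summed over each whole gene. Exons of GCLC and SRXN1 overlap another annotated gene on the same strand, and exons of GCLC and NQO1 overlap one on the opposite strand, so part of their reads may belong to those genes.

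The genes differed widely in abundance. Per kilobase of exon, Control tumors held 203 CPM of TXN, the small redox protein thioredoxin, 66.1 of NQO1, a quinone reductase, 47.5 of TXNRD1, thioredoxin reductase, and 39.8 of SRXN1, which repairs over-oxidized peroxiredoxins. GSR, glutathione reductase, stood at 31.8 CPM per kilobase, GSS at 10.7, GCLC at 8.61, GCLM at 5.63 and HMOX1, which degrades heme, at 4.69. In Control cultures TXN (301 CPM per kilobase) was again highest, followed by TXNRD1 (128), NQO1 (108), GSR (66.7), SRXN1 (52.2), GCLM (17.8), GCLC (14.1), GSS (9.14) and HMOX1 (3.66). Per kilobase, TXNRD1 stood below NQO1 in Control tumors and above it in Control cultures, and GCLM below GCLC in the tumors and above it in the cultures. These orders depend on the exon length used. In CPM, TXNRD1 was above NQO1 in Control tumors too (318 against 215), and GCLM below GCLC in Control cultures too (96.7 against 122). GPX2 had 9 reads in all 28 libraries together, with a count in 6 of them, so that at this depth its level lay at or under the 0.234 to 0.493 CPM that 3 counts stand for in a library, which covers counting error only.

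**Figure D1:**
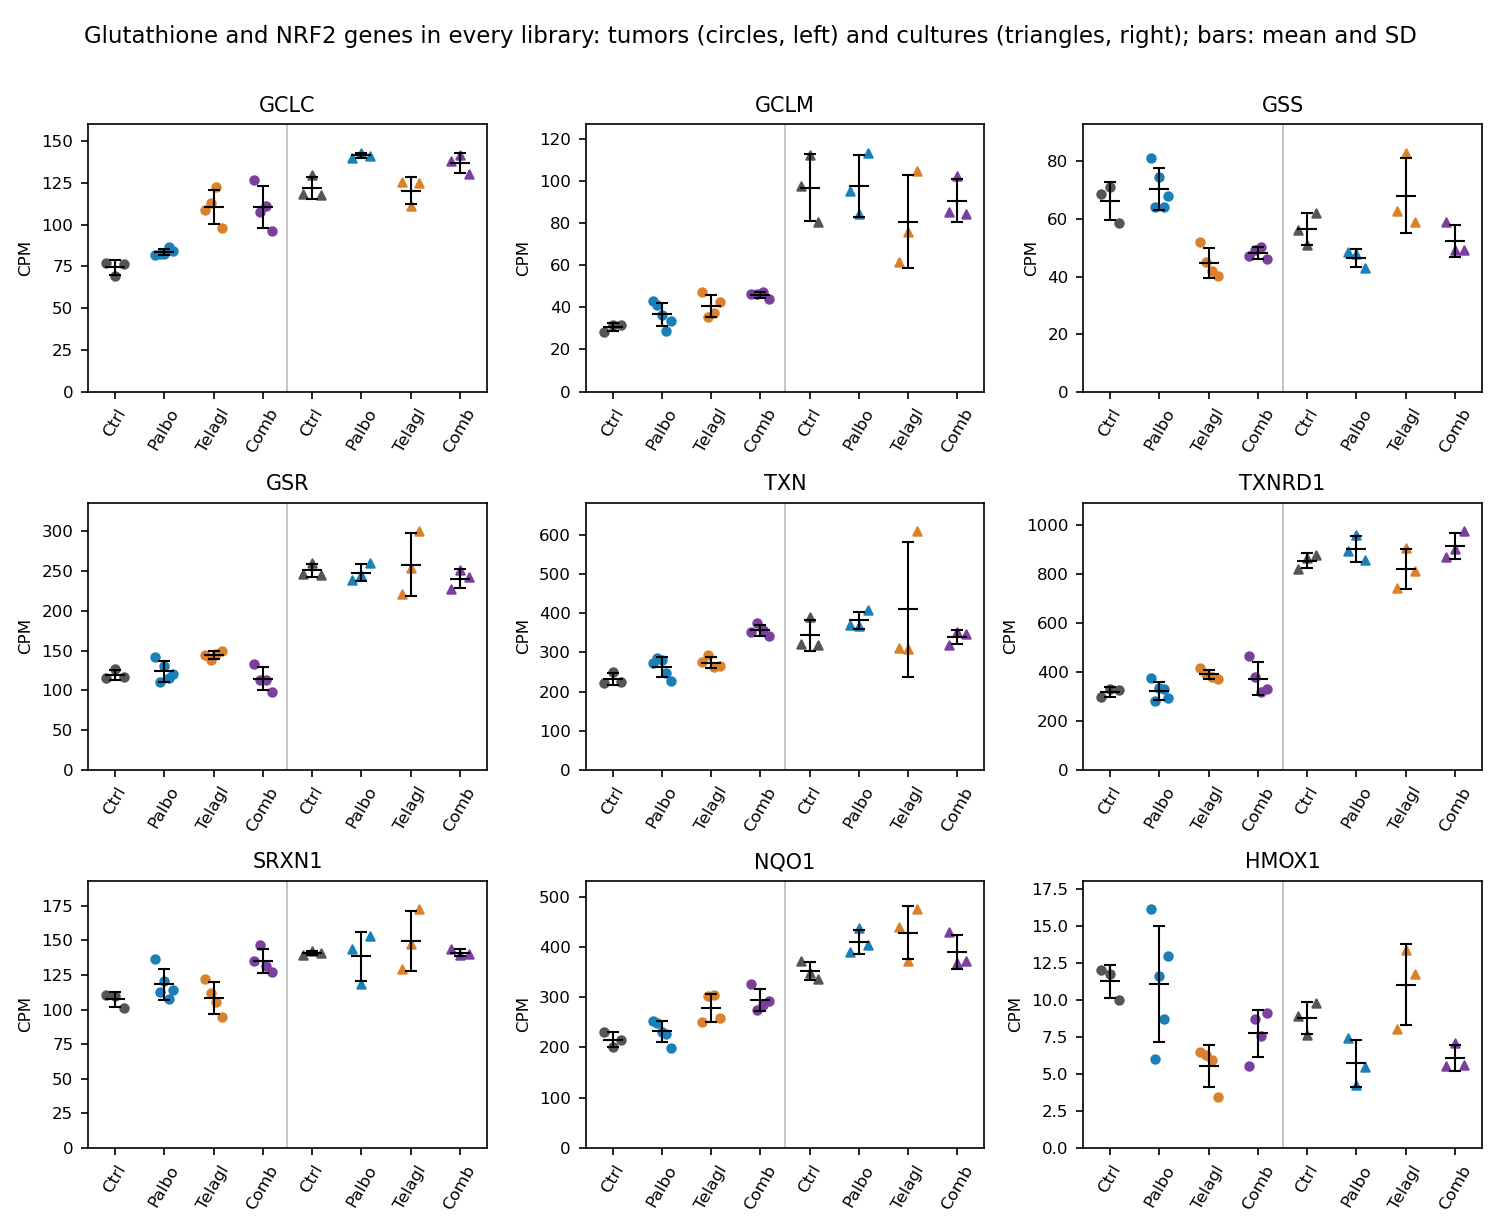
CPM of 9 genes in every library, in 4 tumor groups (circles) and 4 culture groups (triangles), with the mean and SD of each group (n = 3 to 5). TXNRD1 lies at 282 to 465 CPM in the 16 tumors and at 743 to 976 CPM in the 12 cultures, whereas HMOX1 stays at 3.45 to 16.1 CPM in tumors and 4.28 to 13.4 CPM in cultures.

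The first comparison set Control cultures against Control tumors, lines and tumors that had received no drug. Of the 9 tested genes 7 rose and none fell, while over all 15466 genes 22.8% rose and 45.9% changed in either direction. The median log2 fold change of the 9 genes was 0.71, against -0.07 over all genes. The GCLC-GCLM ligase, the reductases GSR and TXNRD1, thioredoxin, sulfiredoxin and NQO1 were all higher in culture, whereas GSS and HMOX1 did not pass the test.

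GCLM measured 28.5, 31.6 and 31.5 CPM in the Control tumors and 97.5, 112 and 80.3 CPM in the Control cultures. The groups were far apart, and the difference was 1.66 on the log2 scale (SE 0.17, adjusted p = 8.41e-09), a 3.17-fold rise. Its partner GCLC measured 77.4, 69.3 and 76.6 CPM in the tumors and 119, 130 and 118 CPM in the cultures, again without overlap, a difference of 0.71 (SE 0.091, adjusted p = 4.54e-07). The modifier thus rose further than the catalytic subunit, and the ratio of GCLM to GCLC within a library went from 0.41 ± 0.044 (SD, n = 3) in Control tumors to 0.79 ± 0.095 (n = 3) in Control cultures. This ratio was 0.304 to 0.524 in all 16 tumors and 0.491 to 0.863 in all 12 cultures, ranges that overlap only through the tumor Palbociclib and culture Telaglenastat groups.

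TXNRD1 measured 296, 333 and 326 CPM in the Control tumors and 821, 866 and 880 CPM in the Control cultures, a difference of 1.43 (SE 0.12, adjusted p = 2.33e-10). Its substrate TXN measured 223, 249 and 223 CPM in the tumors and 321, 390 and 320 CPM in the cultures, a difference of 0.57 (SE 0.16, adjusted p = 0.0045). Reductase and substrate both rose, the reductase by the larger factor. The ratio of TXNRD1 to TXN was 1.37 ± 0.075 (SD, n = 3) in Control tumors and 2.51 ± 0.27 (n = 3) in Control cultures, and across all treatments it was 0.89 to 1.51 in tumors and 1.33 to 2.93 in cultures, the lowest culture being replicate 3 of the Telaglenastat lines. TXN has 7 named pseudogenes, with which reads may be shared, so its counts are less certain than those of the other genes.

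GSR, which regenerates reduced glutathione with NADPH, measured 115, 127 and 116 CPM in the Control tumors and 247, 260 and 245 CPM in the Control cultures. The difference was 1.07 (SE 0.11, adjusted p = 8.41e-09). NQO1 was higher by 0.71 (SE 0.1, adjusted p = 3.76e-06), with 200 to 230 CPM in the tumors and 337 to 371 CPM in the cultures. SRXN1 was higher by 0.39 (SE 0.11, adjusted p = 0.00394), with 101 to 111 CPM in the tumors and 139 to 142 CPM in the cultures. For all 3 genes every Control culture exceeded every Control tumor. The share of all genes so separated was not counted, here or in the comparisons below. The SRXN1 call was lost without the low-count filter (0.28, adjusted p = 0.127).

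GSS measured 58.7 to 71.2 CPM in Control tumors and 50.9 to 62.1 CPM in Control cultures, a difference of -0.23 (SE 0.13, adjusted p = 0.135). HMOX1 measured 12.04, 11.8 and 9.99 CPM in the tumors and 8.9, 7.68 and 9.83 CPM in the cultures, and although the groups did not overlap the difference of -0.36 (SE 0.28, adjusted p = 0.317) did not pass the test. After the GC and length correction 6 of the 9 genes remained past the threshold, all higher, with 22.8% of all genes higher, GCLM by 1.33, TXNRD1 by 1.25, GSR by 1.03, SRXN1 by 0.65, GCLC by 0.55 and NQO1 by 0.54. TXN no longer passed (0.24, adjusted p = 0.0869). The stroma, vessel and blood markers also differed between these groups (244 to 295 CPM in Control tumors, 8.83 to 30.8 CPM in Control cultures), and their part in these differences was not tested.

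**Figure D2:**
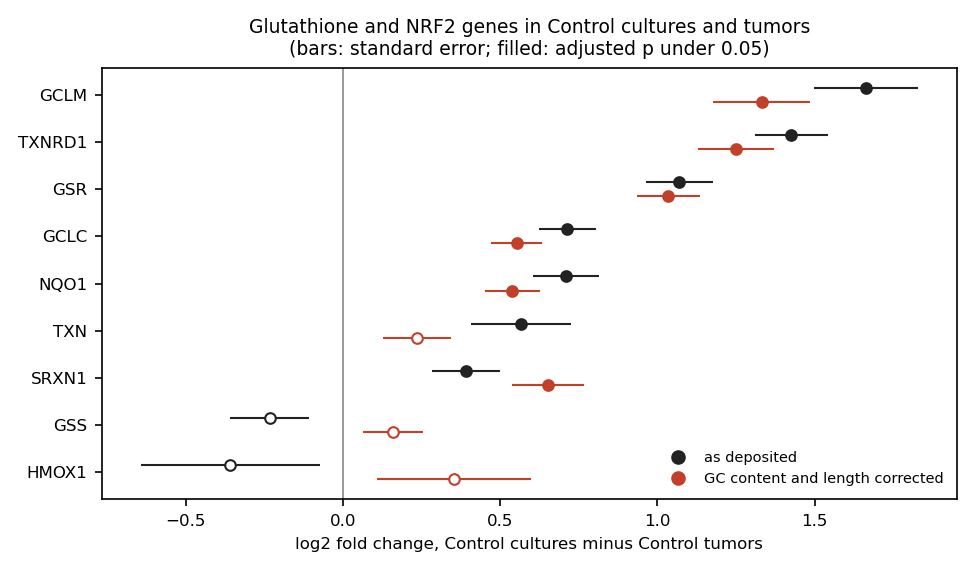
Log2 fold change of 9 genes between Control cultures and Control tumors (3 against 3 libraries) with its standard error, from counts as deposited (black) and after the GC and length correction (red), filled where the adjusted p is under 0.05. GCLM and TXNRD1 lie farthest to the right, at 1.66 and 1.43 before the correction and 1.33 and 1.25 after it.

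**Figure D3:**
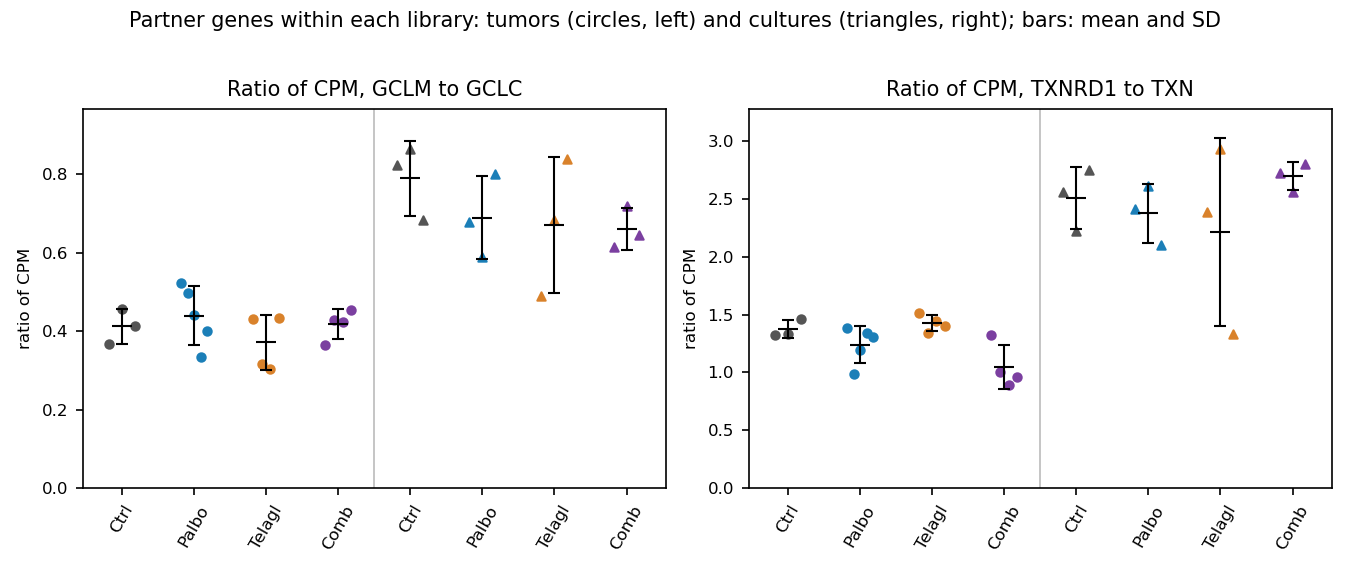
Ratio of CPM within each library for GCLM to GCLC (left panel) and TXNRD1 to TXN (right panel), by group, with mean and SD (n = 3 to 5). The Control means are 0.41 and 1.37 in tumors and 0.79 and 2.51 in cultures.

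Genes around these enzymes were examined in the same comparison. NFE2L2 itself rose by 0.87 (SE 0.099, adjusted p = 7.61e-08), from 103 ± 6.78 CPM (SD, n = 3) in Control tumors to 188 ± 5.29 CPM (n = 3) in Control cultures. KEAP1 fell by 0.55 (SE 0.22, adjusted p = 0.0396), from 53.4 ± 1.43 to 36.5 ± 4.89 CPM, but with the correction its difference was 0.19 (adjusted p = 0.324). Among 11 regulators of NRF2, 3 rose and 5 fell, with CUL3 (0.87) among the former and the small MAF genes MAFF (-1.28) and MAFK (-0.85) among the latter. With the correction 3 were higher and 2 lower, CUL3 (0.64) and MAFF (-0.57) keeping their calls and MAFK standing at 0.046 (adjusted p = 0.899).

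Of 12 genes of glutathione supply and turnover 6 rose and 2 fell. SLC7A11, the cystine importer that feeds glutathione synthesis, rose from 34.9 to 250 CPM (2.84, SE 0.25, adjusted p = 6.66e-10), and CHAC1, which degrades glutathione, rose from 0.694 to 8.27 CPM (3.54, SE 0.65, adjusted p = 6.17e-05). GGT7 (-1.34) and LAP3 (-0.68) fell, of which GGT7 lost its call with the correction (-0.59, adjusted p = 0.13), leaving 6 higher and 1 lower. Of 12 tested genes of peroxide and superoxide removal 6 rose and 3 fell, the peroxiredoxins PRDX3 (1.14) and PRDX1 (1.09) rising and PRDX2 (-1.35) and PRDX5 (-1.33) falling. Of 10 tested genes of the thioredoxin and glutaredoxin system 5 rose and 1 fell, the glutaredoxins GLRX3 (1.14) and GLRX2 (1.05) rising and GLRX (-1.09) falling. In both lists the corrected counts were the same and each gene named kept its call. None of 12 tested glutathione transferases rose and 5 fell, among them GSTP1 (-1.05) and GSTM4 (-0.79), but both lost their calls with the correction (-0.25, adjusted p = 0.099, and -0.48, adjusted p = 0.116), when 1 transferase was higher and 2 were lower. Of 22 tested other NRF2 target genes 4 rose and 4 fell, ME1 (1.06) and PIR (1.01) rising and AKR1C3 (-2.70) and OSGIN1 (-1.92) falling. The correction turned this count to 7 higher and 2 lower, and OSGIN1 lost its call (-1.13, adjusted p = 0.0936). Before the correction the medians of these lists ran from -0.47 for the glutathione transferases to 0.65 for the thioredoxin and glutaredoxin system. Over all 79 tested genes of these lists and of the regulators 24 rose and 20 fell, beside 3531 and 3568 of all 15466 genes. With the correction 28 were higher and 11 lower, beside 3516 and 2750 of all 15411 genes.

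In tumors, Palbociclib was compared with Control to ask what residual tumors express under CDK4/6 inhibition alone. None of the 9 genes passed edgeR's test, while 6.16% of all 14848 genes did. At an unadjusted p under 0.05 there were 3, namely GCLC, GCLM and TXN, beside 2701 of all 14848 genes. DESeq2's Wald test also called 0 of the 9. GCLC measured 81.7, 82.5, 82.7, 86.6 and 84.2 CPM in the Palbociclib tumors, each above the 69.3 to 77.4 CPM of Control, but the difference of 0.17 (SE 0.08) had an adjusted p of 0.262. GCLM differed by 0.27 (SE 0.12, adjusted p = 0.216) and TXN by 0.18 (SE 0.075, adjusted p = 0.179), with overlapping groups. The remaining differences lay between -0.02 for HMOX1 and 0.14 for SRXN1, and no leave-one-out fit called any of them. Of 76 other tested genes of the pathway 4 rose and none fell, FTH1, the ferritin heavy chain, by 0.58 (SE 0.085, adjusted p = 0.000205), ABCC3 by 0.73, ABCC4 by 0.39 and GSTK1 by 0.29.

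Telaglenastat was compared with Control to ask what tumors express when glutaminase is inhibited. Of the 9 genes 3 rose (GCLC, GCLM and NQO1) and 2 fell (GSS and HMOX1), against 22.6% of all genes rising and 28.5% falling, 51.1% in all. The share of 5 in 9 is close to that background. The genes that fell were those with the highest GC content of their transcripts, HMOX1 (60.2%) and GSS (54.9%), and the genes that rose had 43.9% (GCLC), 40.4% (GCLM) and 47.1% (NQO1).

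HMOX1 measured 6.49, 6.28, 5.95 and 3.45 CPM in the Telaglenastat tumors, all below the 9.99 to 12.04 CPM of Control, from counts of 23 to 45 reads per library. The difference was -1.13 (SE 0.28, adjusted p = 0.00218). GSS measured 52.0, 45.1, 42.0 and 40.2 CPM, all below the 58.7 to 71.2 CPM of Control, a difference of -0.67 (SE 0.1, adjusted p = 2.2e-05). After the correction the differences were 0.03 (SE 0.24, adjusted p = 0.957) for HMOX1 and -0.11 (SE 0.094, adjusted p = 0.526) for GSS, so that neither fall was called.

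GCLC measured 109, 113, 122 and 98.1 CPM in the Telaglenastat tumors, all above the 69.3 to 77.4 CPM of Control, a difference of 0.46 (SE 0.084, adjusted p = 0.000141). GCLM measured 47.1, 35.6, 37.3 and 42.5 CPM against 28.5 to 31.6 CPM, a difference of 0.30 (SE 0.12, adjusted p = 0.0446). NQO1 measured 250, 302, 304 and 258 CPM against 200 to 230 CPM, a difference of 0.26 (SE 0.086, adjusted p = 0.0151). In CPM no Telaglenastat tumor overlapped a Control tumor in any of the 3 genes, but the share of all genes so separated was not counted. After the correction the differences were 0.18 (adjusted p = 0.16), -0.06 (adjusted p = 0.802) and 0.11 (adjusted p = 0.457). The GCLM call was also lost without any 1 of Control replicates 1, 2 and 3 or Telaglenastat replicates 1 and 4 (0.22 to 0.33), and the NQO1 call without Control replicate 2 (0.21) or Telaglenastat replicate 2 (0.22).

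SRXN1 (GC content 53.6%) showed the opposite. It measured 122, 112, 105 and 94.8 CPM in the Telaglenastat tumors and 101 to 111 CPM in Control, overlapping groups with a difference of -0.09 (SE 0.089, adjusted p = 0.41). With the correction the difference was 0.35 (SE 0.086, adjusted p = 0.00949), the only one of the 9 called, against 13.2% of all genes. GSR, TXN and TXNRD1 differed by 0.17, 0.13 and 0.19 and did not pass the test. In CPM no Telaglenastat tumor overlapped Control in any of them, but Telaglenastat tumors sit higher there by a log2 value of 0.11 than in the test. GSR passed with only the groups compared (adjusted p = 0.0449) and in a fit of all 28 libraries (adjusted p = 0.0257), TXNRD1 in these and without the low-count filter (adjusted p from 0.0271 to 0.0323), and TXN with DESeq2 (adjusted p = 0.0481). With the correction TXN stood at -0.19 (adjusted p = 0.0748) and TXNRD1 at -0.067 (adjusted p = 0.757).

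**Figure D4:**
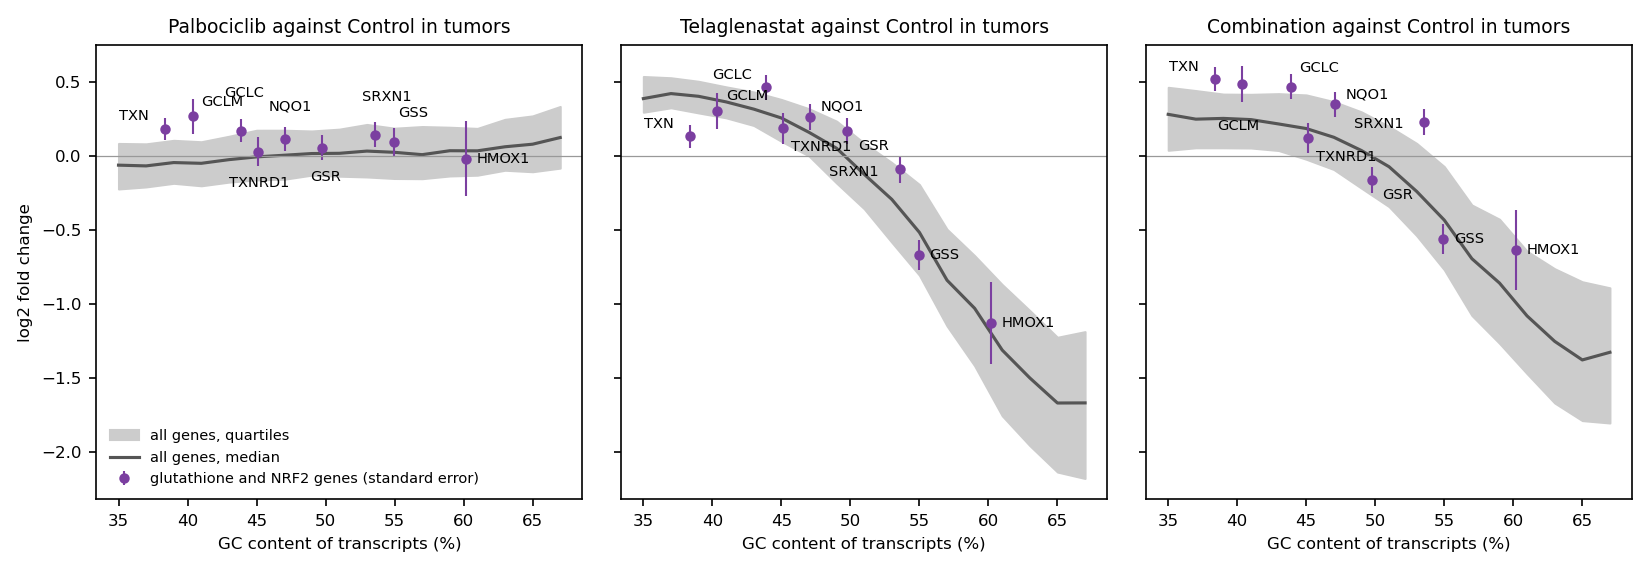
Log2 fold change against GC content of the transcripts (%) for the 9 genes (points with standard error) and, in bins of 2 percentage points, the median and quartiles of all genes, for the 3 treatments against Control in tumors. Under Telaglenastat the median of all genes runs from 0.40 at 38 to 40% GC to -1.31 at 60 to 62%, and GSS and HMOX1 lie within the quartiles of genes of like GC content.

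The Combination was compared with Control next. Of the 9 genes 5 rose (GCLC, GCLM, TXN, NQO1 and SRXN1) and 1 fell (GSS), against 17.6% of all genes rising and 26.9% falling, 44.5% in all. The correction left 3, all higher, GCLC, TXN and SRXN1, against 13% of all genes higher. The median of the 9 genes was 0.23 before and 0.22 after it, beside -0.04 and 0.00 over all genes.

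TXN measured 352, 375, 357 and 342 CPM in the Combination tumors and 223, 249 and 223 CPM in Control. Every Combination tumor lay well above Control, and the difference was 0.52 (SE 0.079, adjusted p = 2.33e-05), or 0.22 (SE 0.068, adjusted p = 0.0224) after the correction. GCLC measured 127, 108, 111 and 96.4 CPM, all above Control, a difference of 0.47 (SE 0.084, adjusted p = 0.000147), or 0.31 (SE 0.08, adjusted p = 0.00726) after the correction. SRXN1 measured 135, 147, 132 and 127 CPM, all above Control, a difference of 0.23 (SE 0.089, adjusted p = 0.0416) that became 0.54 (SE 0.086, adjusted p = 9.38e-05) with the correction. The uncorrected SRXN1 call was lost without any 1 of Control replicates 1, 2 and 3 or Combination replicates 2 and 3 (0.19 to 0.26).

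GCLM lay within a narrow span in the Combination tumors, 46.3, 46.1, 47.0 and 43.9 CPM, above the 28.5 to 31.6 CPM of Control. Its difference was 0.48 (SE 0.12, adjusted p = 0.00307), and 0.26 (SE 0.12, adjusted p = 0.115) after the correction. NQO1 measured 326, 275, 284 and 292 CPM, a difference of 0.35 (SE 0.086, adjusted p = 0.00261), and 0.19 (adjusted p = 0.0947) after it. GSS measured 47.1, 49.4, 50.4 and 45.9 CPM, all below Control, a difference of -0.56 (SE 0.1, adjusted p = 0.000172), and -0.08 (adjusted p = 0.604) after it. HMOX1, at 5.58, 8.70, 7.58 and 9.13 CPM, differed by -0.64 (SE 0.27, adjusted p = 0.0641), and GSR and TXNRD1 differed by -0.17 and 0.12 without passing the test.

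**Figure D5:**
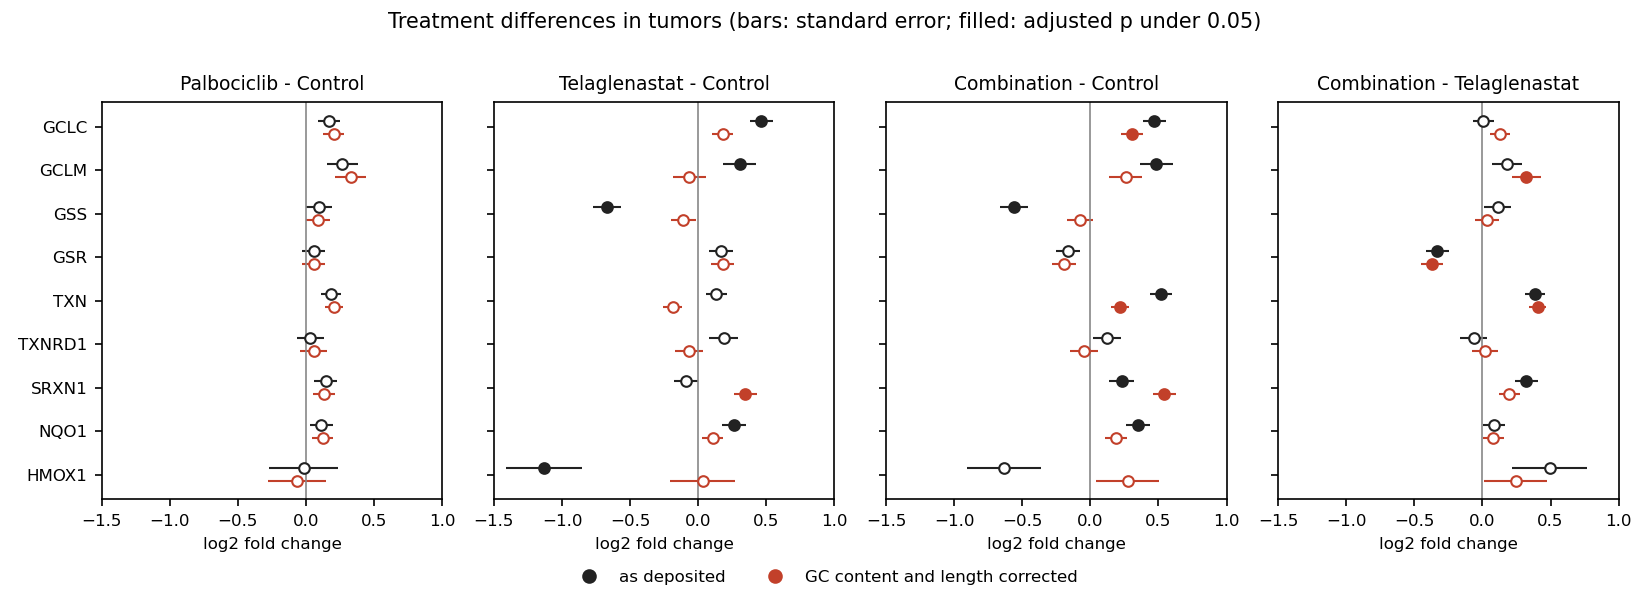
Log2 fold change of 9 genes with its standard error in 4 comparisons of tumor groups, from counts as deposited (black) and after the GC and length correction (red), filled where the adjusted p is under 0.05. In the Combination against Telaglenastat, TXN (0.39 and 0.40) and GSR (-0.33 and -0.37) are filled in both colors.

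The Combination and Telaglenastat groups differed less from each other in GC dependence than either did from Control, and their comparison asks what Palbociclib adds to glutaminase inhibition. TXN and SRXN1 rose and GSR fell, 3 of 9 genes against 18.8% of all genes. TXN measured 342 to 375 CPM in Combination and 264 to 292 CPM in Telaglenastat tumors, without overlap, a difference of 0.39 (SE 0.073, adjusted p = 0.000831), and 0.40 (adjusted p = 0.000136) after the correction. GSR measured 133, 113, 114 and 98.0 CPM in Combination and 145, 138, 145 and 149 CPM in Telaglenastat tumors, every value of the former below the latter, a difference of -0.33 (SE 0.082, adjusted p = 0.00744), and -0.37 (adjusted p = 0.00362) after the correction. SRXN1 differed by 0.32 (SE 0.083, adjusted p = 0.00993), but by 0.20 (adjusted p = 0.104) after the correction, whereas GCLM, at 0.18 (adjusted p = 0.298), passed only with it (0.32, adjusted p = 0.0492), beside 15.7% of all genes in the corrected fit. All 3 uncorrected calls were kept in each of the 8 fits without 1 library, but in a fit of all 28 libraries TXN did not pass (0.38, adjusted p = 0.0713).

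Against Palbociclib alone, GCLC (0.30), TXN (0.34) and NQO1 (0.24) rose and GSS (-0.65), GSR (-0.22) and HMOX1 (-0.62) fell in the Combination, 6 of 9 genes against 47.6% of all. With the correction GSR (-0.25, adjusted p = 0.0371) and SRXN1 (0.41, adjusted p = 0.000707) passed, against 14.4% of all genes. The GSR call was lost without Palbociclib replicates 1 or 3 or Combination replicates 2 or 4, and the HMOX1 call without Palbociclib replicates 1, 3 or 5 or Combination replicates 1, 2 or 3. Both calls were also lost with DESeq2 (adjusted p = 0.0786 and 0.0674), its size factors, only the groups compared and all 28 libraries (-0.11, adjusted p = 0.299, and -0.52, adjusted p = 0.0774), and that of GSR without the low-count filter (adjusted p = 0.076). The 3 comparisons with the Combination share its 4 libraries.

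Whether the Combination departed from the sum of the effects of both drugs was tested by an interaction contrast. No gene of the 9 passed, against 0.0673% of all genes, and DESeq2 also called 0. GSR was the only one with an unadjusted p under 0.05, beside 1424 of all 14848 genes. It stood at -0.39 (SE 0.12, adjusted p = 0.289), and the other 8 lay between -0.17 and 0.51.

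The regulators in treated tumors are given beside these enzymes. NFE2L2 measured 103 ± 6.78 CPM (SD, n = 3) in Control, 102 ± 6.73 (n = 5) in Palbociclib, 136 ± 10.4 (n = 4) in Telaglenastat and 139 ± 6.08 CPM (n = 4) in Combination tumors. It rose by 0.30 (SE 0.074, adjusted p = 0.00226) under Telaglenastat and by 0.33 (SE 0.074, adjusted p = 0.000979) under the Combination, but was at 0.00 and 0.14 after the correction, uncalled. KEAP1 fell from 53.4 ± 1.43 CPM in Control to 24.5 ± 1.46 under Telaglenastat (-1.23, SE 0.13, adjusted p = 2.07e-07) and 23.6 ± 3.13 CPM under the Combination (-1.28, SE 0.13, adjusted p = 2.62e-07), and was at 0.00 (adjusted p = 0.989) and -0.27 (adjusted p = 0.0644) after it.

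Some genes of the wider pathway differed before and after the correction alike. Under Telaglenastat 15 of 76 tested genes rose and 35 fell, beside 22.6% and 28.5% of all genes. With the correction 4 were higher and 15 lower, beside 13.2% of all genes in either direction. The medians before and after it were -0.04 and -0.10, beside 0.03 and 0.00 over all genes. The falls that kept their call included GSTP1, a glutathione transferase (-2.15, corrected -0.83), the peroxidases PRDX2 (-2.08, corrected -1.16) and GPX4 (-2.01, corrected -0.56), and GGT1 (-2.36, corrected -1.13). TXNRD3 (0.51, corrected 0.42) was higher with and without the correction, whereas the calls of SESN2 (-1.27, corrected -0.20), TXN2 (-0.99, corrected -0.17), OPLAH (-2.44, corrected -0.87), OSGIN1 (-2.33, corrected -1.06), GSTZ1 (-0.78, corrected -0.12) and SQSTM1 (-1.14, corrected -0.15) were lost with it. OPLAH and OSGIN1 thus kept sizeable negative values that did not pass the test. The calls of BACH1 (0.39), CUL3 (0.41), SOD2 (0.30), GPX8 (0.47), SESN1 (0.51), ABCC4 (0.49), UGDH (0.42) and ABCC2 (0.52) were lost too, with corrected values from -0.022 for CUL3 to 0.27 for ABCC2.

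Under the Combination 19 of these 76 genes rose and 30 fell, beside 17.6% and 26.9% of all 14848 genes, or 13 and 14 with the correction, beside 1921 and 1936 of all 14800 genes. FTH1, the ferritin heavy chain, rose from 1065 to 2124 CPM (0.89, corrected 1.24, adjusted p = 2.26e-07 and 7.23e-08). MGST2 (0.76, corrected 0.61), NFE2L3 (0.72, corrected 0.51), GLRX (0.64, corrected 0.47), GPX8 (0.59, corrected 0.34), ABCC4 (0.55, corrected 0.39), UGDH (0.52, corrected 0.31) and SOD2 (0.38, corrected 0.25) also rose in both fits. BLVRB (-2.27, corrected -1.29), PRDX2 (-1.86, corrected -1.15), GSTP1 (-1.86, corrected -0.83), GPX4 (-1.59, corrected -0.47) and TXN2 (-1.08, corrected -0.46) fell in both. Calls lost with the correction were those of MAFK (-0.79, corrected 0.41), TXNRD2 (-1.08, corrected -0.16), GGT1 (-1.39, corrected -0.37), OPLAH (-1.74, corrected -0.50) and GSTZ1 (-0.77, corrected -0.19), and upward those of BACH1 (0.35), GLRX3 (0.33), MGST1 (0.43) and GGCT (0.31), with corrected values from 0.079 to 0.21.

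Against Telaglenastat 15 of the 76 rose and 2 fell in the Combination, beside 18.8% of all genes in either direction, or 12 and 3 with the correction, beside 15.7%. These included FTH1 (0.80), GLRX (0.63), NFE2L3 (0.58) and GSTK1 (0.42) upward and ABCC2 (-0.90) downward, each also called with the correction, as were ABCC3 (0.64), MGST2 (0.42) and ABCC1 (0.39). The calls of CUL3 (-0.25, corrected -0.034), MAFG (0.47, corrected 0.34), SESN2 (0.63, corrected 0.43), PRDX5 (0.42, corrected 0.053) and GPX4 (0.41, corrected 0.096) were lost with it.

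In the cultures, where no drug was present, the comparisons ask whether a difference outlasted treatment. None of the 9 genes passed edgeR's test in any of the 5 comparisons, in which 0%, 0%, 0.00715%, 0% and 0% of 13985 genes passed, in the order Palbociclib, Telaglenastat and Combination lines against Control lines, then Combination lines against those of Palbociclib and of Telaglenastat. At an unadjusted p under 0.05 there were 2, 1, 0, 0 and 2 of the 9, beside 592, 898, 895, 277 and 1969 of all 13985 genes. DESeq2 called none of the 9. The largest difference was that of HMOX1 between the Combination and Telaglenastat lines, -0.85 (SE 0.27, adjusted p = 0.297), with 5.52 to 7.08 CPM in the former and 8.02 to 13.4 CPM in the latter, which passed without Telaglenastat replicate 1 (-1.03, adjusted p = 0.0383).

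GCLC was 140, 143 and 141 CPM in the Palbociclib lines and 138, 142 and 131 CPM in the Combination lines, above the 118 to 130 CPM of the Control lines, with differences of 0.21 (SE 0.093, adjusted p = 0.795) and 0.16 (SE 0.093, adjusted p = 0.686). The Telaglenastat lines varied most. TXN measured 311, 310 and 609 CPM in them, the last from replicate 3, and SRXN1 129, 147 and 172 CPM. GCLM measured 61.6, 75.8 and 105 CPM. Replicate 2 of these lines had a GC dependence of 0.43 per SD against -0.03 and -0.02 in the other two, and without it none of the 9 genes was called against Control.

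The difference between treatment effects in cultures and tumors was tested directly. For Telaglenastat, 4 of 9 genes passed, against 34.1% of all genes. The effect in cultures minus that in tumors was -0.59 for GCLC (SE 0.12, adjusted p = 0.000938) and -0.67 for GCLM (SE 0.22, adjusted p = 0.0212). It was 1.36 for HMOX1 (SE 0.39, adjusted p = 0.00981) and 0.84 for GSS (SE 0.17, adjusted p = 0.000846). With the correction none of the 4 passed (adjusted p from 0.157 to 0.915), against 3.8% of all genes. For Palbociclib and the Combination 0 of 9 passed, against 1.39% and 2.91% of all genes. At an unadjusted p under 0.05 there were 1 and 5 of the 9, beside 2159 and 3211 of all 15466 genes. DESeq2 called 0 of the 9.

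Over the 8 conditions, the genes were compared by the root mean square difference of their centered mean log2 CPM, among 36 pairs. SRXN1 and TXN (0.12) and GCLM and TXNRD1 (0.12) were the closest pairs, and HMOX1 and TXNRD1 (0.88) and GCLM and HMOX1 (0.87) the farthest apart. GCLM (1.66) and TXNRD1 (1.53) had the widest span between conditions and SRXN1 (0.47) the narrowest. All conditions share the scaling, so this likeness is a description of levels.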

How the data were processed

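Poly(A) RNA was made into strand-marked libraries (second strand with uracil, NEBNext Ultra) and sequenced in single-end format on a HiSeq instrument. Per the labels' processing notes, CASAVA 1.8 and STAR were used with hg38. The authors deposited raw read counts per gene, whole numbers without normalization. The annotation release and the strand setting of the counting are not given in the sources used here.

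Samples were grouped by tissue and treatment labels. The genes and lists were chosen with earlier results of these data known. All 10 genes are named, NFE2L2 and KEAP1 always, and from each of 6 other lists (85 genes in all) up to 2 of the largest rises and 2 of the largest falls past the threshold in a comparison. The values of 1 gene that this rule names are not reported here. Counts were fitted in edgeR 4.0.16 (R 4.3.3) as group means, tumors and cultures separately and all 28 libraries together for contrasts between them, after filterByExpr (minimum count 10) and TMM scaling, with glmQLFTest and Benjamini-Hochberg adjustment at 0.05. SE was derived from the log2 fold change and F. The filter left 14848 genes in tumors, 13985 in cultures and 15466 in the joint fit. Log2 CPM used a prior count of 2.

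The correction regressed each library's deviation of log2 CPM on natural splines (4 degrees of freedom each), by robust regression (MASS 7.3-60.0.1), and entered the fit as an offset. The splines were of GC content of GENCODE 29 transcripts and of the log length of the joined exons of a gene. The correction removes any real change that follows GC content or length too. 57940 of 58278 genes matched that annotation. Promoter windows came from RefSeq (GRCh38.p14).

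On simulated data with 200 genes changed 2-fold, the test recovered 80% of them for Telaglenastat against Control in tumors (14848 genes), 84.5% for the Combination against Control in cultures (13985 genes) and 53% for the Telaglenastat difference between cultures and tumors (15466 genes). The simulated counts had the same spread beyond counting error for every gene and library, and no GC dependence. These shares therefore do not give the power of the tests on the real libraries. No pair of libraries agreed within sampling noise. Alternatives were DESeq2 1.42.0, its size factors, no low-count filter, the GC and length correction, the replicate number as a block, only the groups compared, all 28 libraries (chosen after seeing the data for the 5 tumor comparisons), and leaving out each library.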

Additional observations from a re-analysis of the deposited data

Results flagged for a closer look

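The effect of Telaglenastat differed between cultures and tumors for 4 genes by a test of the difference itself, all in the uncorrected fit. In that fit the same test called 34.1% of all 15466 genes, so such a call was common. With the GC and length correction it called 3.8% of all 15411 genes. The value in cultures minus that in tumors was -0.59 for GCLC, -0.67 for GCLM, 1.36 for HMOX1 and 0.84 for GSS, and after the GC and length correction it was -0.15, -0.19, 0.11 and 0.34, none of them called. The GCLM call was also lost without Control culture replicate 2 (-0.55), Telaglenastat culture replicate 1 (-0.52) or 2 (-0.63), or Control tumor replicate 1 (-0.63), and the GCLC call without the low-count filter (-0.46). Of 27 gene and group combinations with 4 or 5 tumors, 0 held a library set apart from the rest of its group.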

How the results depend on the processing

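Of 31 calls of the 9 genes, 29 were kept with DESeq2, 29 with its size factors, 28 without the low-count filter, 27 with the replicate block, 18 of 20 with only the groups compared, 17 of 20 in a fit of all 28 libraries and 223 of 249 across fits without 1 library, but 12 with the GC and length correction. With it the number of the 9 genes called was 1 for Telaglenastat, 3 for the Combination, 2 for the Combination against Palbociclib and 0 for the Telaglenastat difference between cultures and tumors, and of other pathway genes 27 were called for the Combination, 19 under Telaglenastat and 7 under Palbociclib. Among results called in either fit, the sign turned under Telaglenastat for GCLM (-0.064), HMOX1 (0.032) and SRXN1 (0.35, then called), and for HMOX1 in the Combination against Palbociclib (0.34). Results called in neither turned too, among them TXN (-0.19) and TXNRD1 (-0.067) under Telaglenastat, HMOX1 in the Combination (0.27) and GCLM in the Combination against Palbociclib (-0.070). Over all genes it moved the calls from 7590 to 1952, 6612 to 3857, 7064 to 2133 and 5278 to 586 in these 4 comparisons. The cause of these changes, beyond the construction of the correction, was not tested. DESeq2 called 7 and a fit of all 28 libraries 2 other pathway genes for Palbociclib (4 in the report), and the latter 6 for the Combination against Telaglenastat (17 in the report), where calls over all genes went from 914 to 513 and from 2794 to 1778. In the 5 culture comparisons, in the order of the report, 134, 120, 175, 42 and 752 genes were called without the low-count filter and 0, 13, 2, 3 and 99 by DESeq2, and for the departure from the sum of both drugs 235 and 92 (10 in the report, 6 with the replicate block, 1 with all 28 libraries). Calls for the Palbociclib and Combination differences between cultures and tumors (215 and 450) ran from 67 to 608 and from 244 to 1242.

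The replicate numbers do not pair the samples, since correlations of deviations between samples of the same number ran from -0.13 to 0.09 in tumors and from -0.42 to 0.14 in cultures, with 6 of 16 and 1 of 12 libraries closest to their own number. With the replicate block 1 of the 9 genes was called for Palbociclib (TXN, 0.25), and the other pathway genes called in Control cultures against tumors were 21, from 44 (over all genes 2972 from 7099, and 1823 with the correction too), SRXN1 (0.47) and TXN (0.72) losing their calls there and NQO1 (0.19) and HMOX1 (-0.51) theirs in the Combination against Palbociclib. GSR lost its call there with block and correction together (adjusted p = 0.0528). With block and correction together the counts of the 9 genes were 1 under either single drug against Control, 3 for the Combination, 1 for the Combination against Palbociclib and 0 for the Telaglenastat difference, those of other pathway genes were 18 (Telaglenastat), 30 (Combination) and 19 (Control cultures against tumors), those over all genes 1730 (Telaglenastat), 3543 (Combination), 1718 (Combination against Palbociclib) and 363 (Telaglenastat difference), and the signs turned for GCLM (-0.043), HMOX1 (0.092) and SRXN1 (0.39) under Telaglenastat and for HMOX1 (0.41) and TXN (-0.026) in the Combination against Palbociclib.

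Without 1 library, the 9 genes called ranged from 3 to 5 for Telaglenastat (3 without Control replicate 2), 0 to 1 for the Combination against Telaglenastat in cultures (1 without Telaglenastat replicate 1) and 0 to 1 for the Combination difference between cultures and tumors (GCLC, -0.47, without Combination tumor replicate 4), and other pathway genes from 1 to 7 for Palbociclib (1 and 2 without Control replicates 2 and 3, 7 without Palbociclib replicate 2). The TXN difference between cultures and tumors for Telaglenastat, 0.01, ranged from -0.39 (adjusted p = 0.0205, without culture Telaglenastat replicate 3) to 0.18. HMOX1 rests on 23 to 180 reads per library, and GPX2 could not be tested at this depth.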
